A study of Homo sapiens with 29 samples.

Results

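Mitosis is driven by a set of genes whose products condense the chromosomes, build the spindle, attach it to the kinetochores and finally split the cell. The RNA level of 60 such genes was followed in PC9 cells, an EGFR-mutant lung adenocarcinoma line that depends on EGFR signalling. They are the listed members of 9 classes: 8 kinases, 5 cyclins and CDC25 phosphatases, 6 genes of the spindle checkpoint and mitotic exit, 3 chromosomal passengers, 11 kinetochore and centromere genes, 12 kinesins, 6 spindle genes, 4 cytokinesis genes and 5 genes of chromosome structure. They form 60 of the 35544 genes that could be summed from the deposited transcripts, and 55 of them reached the mean of 10 TPM (an abundance scaled to transcript length and to the whole library) set for testing. The other 5, SPC25, CENPE, KIF14, KIF15 and KIF20B, are described separately.

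The 29 libraries came from 10 PC9 lines. PAR is the parental line, KO carries a CRISPR cut in the part of AXL that encodes its kinase domain, and the other 8 lines are KO cells that received an AXL transgene. It was unmutated in WT, without kinase activity in KD, and had 1 tyrosine changed to phenylalanine in the rest (Y634F, Y643F, Y698F, Y726F, Y750F, Y821F). AXL is a receptor tyrosine kinase that has been linked to resistance to EGFR inhibitors. Each line was left untreated or was given the EGFR inhibitor erlotinib at 1 μM (E), or erlotinib at 1 μM with the AXL-activating antibody AF154 at 300 ng/mL (EA), for 24 h, with 1 library for each line and treatment. An EA library of KO was not analysed here. Transduced pools had been sorted on GFP, yet per the study's supplement only a minority of their cells expressed AXL. The lines serve as the replicates, so a p-value measures the spread between lines that share 1 parental culture.

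In mammalian cells many mitotic genes are held silent in G1 and switched on in G2 by complexes built on MuvB, first with the DREAM repressor and then with B-MYB and FOXM1. These complexes are known to meet DNA at the cell cycle genes homology region (CHR), close to the start of transcription, with CCAAT boxes bound by NF-Y just upstream. CDK1 with its B-type cyclins starts mitosis, the spindle checkpoint delays anaphase until the kinetochores are attached, and the anaphase-promoting complex with CDC20 then ends it. Since cyclin B, topoisomerase II alpha and their neighbours peak in G2 and M, their RNA in a bulk culture reads how many cells are in these phases together with how much RNA each holds, and fewer such cells and less RNA per cell cannot be told apart here.

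The promoters of the members are shown first because many of them share letters. These letters were not themselves used to choose the genes. Many mitotic genes are regulated through the CHR, as described above, so the choice and the letters are not independent. RefSeq windows on GRCh38.p14, from 250 bases before the start of transcription to 50 after it, existed for 52 of the 60 genes and gave 68 windows. Windows were not matched for AURKA, TTK, BUB3, UBE2C, BIRC5, CENPM, TPX2 and RACGAP1. A pair of short words was searched on both strands. CHR letters were TTTGAA, which reads TTCAAA on the opposite strand, and also TTCGAA. The letters of the CCAAT box read ATTGG on the opposite strand, and the 2 kinds of word may overlap as in MKI67. Below are the 150 bases before the start, 5′ to 3′ on the gene's strand, with both kinds of letters in capitals. The kinase, cyclin, spindle, cytokinesis and chromosome structure classes are represented by their most highly expressed member with both words there, and STMN1 is the member whose level moved least.
CDK1: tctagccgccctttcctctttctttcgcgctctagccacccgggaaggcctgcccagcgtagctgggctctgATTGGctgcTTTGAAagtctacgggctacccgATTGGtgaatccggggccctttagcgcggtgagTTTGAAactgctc
CCNB2: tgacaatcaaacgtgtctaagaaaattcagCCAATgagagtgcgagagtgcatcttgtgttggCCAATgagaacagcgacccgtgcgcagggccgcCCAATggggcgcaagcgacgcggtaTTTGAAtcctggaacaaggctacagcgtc
HMMR: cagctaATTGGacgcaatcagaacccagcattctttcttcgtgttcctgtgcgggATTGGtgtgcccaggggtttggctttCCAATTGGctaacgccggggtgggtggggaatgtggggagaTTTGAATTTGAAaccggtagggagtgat
PRC1: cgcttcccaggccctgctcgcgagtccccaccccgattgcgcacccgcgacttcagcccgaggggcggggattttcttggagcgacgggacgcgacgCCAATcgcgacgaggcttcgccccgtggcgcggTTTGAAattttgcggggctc
MKI67: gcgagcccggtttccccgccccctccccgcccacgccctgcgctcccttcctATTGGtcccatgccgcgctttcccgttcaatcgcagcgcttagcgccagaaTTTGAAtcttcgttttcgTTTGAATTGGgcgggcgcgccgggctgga
STMN1: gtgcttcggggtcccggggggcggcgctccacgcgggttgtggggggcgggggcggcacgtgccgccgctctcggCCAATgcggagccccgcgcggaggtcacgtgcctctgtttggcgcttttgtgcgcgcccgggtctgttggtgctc

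These stretches lie at CDK1 (chr10:60778328-60778477, plus strand), CCNB2 (chr15:59104996-59105145, plus strand), HMMR (chr5:163460482-163460631, plus strand), PRC1 (chr15:90994536-90994685, minus strand), MKI67 (chr10:128126424-128126573, minus strand) and STMN1 (chr1:25906420-25906569, minus strand). In CCNB2, which encodes cyclin B2, the CHR letters began 29 bases before the start and the CCAAT letters began 54, 87 and 120 bases before it. HMMR, whose product binds hyaluronan and spindle microtubules, held 2 adjoining CHR words at 28 and 22 bases before the start. PRC1, the bundler of the central spindle, had 1 CHR word at 20 and 1 CCAAT word at 53 bases before the start. STMN1 held no CHR word in any of its 3 windows and 1 CCAAT word in the stretch shown. The RefSeq start used here can differ from the GENCODE 29 start of the same gene, as it does for CDK1.

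CHR letters were present in 45 of the 68 member windows (66.2%), against 16.4% of all 35116 RefSeq windows. Within 50 bases of the start they were present in 38 member windows (55.9%) and in 5.01% of all windows. CCAAT letters were present in 44 member windows (64.7%) and in 34.6% of all windows. Counted by gene, 41 of the 52 held CHR letters. The 11 without them were AURKB, CCNA2, CCNB1, CENPE, CENPK, CENPU, CKAP2, KIF20A, KIF2C, SPC24 and STMN1. All 4 genes of the checkpoint and mitotic exit class that had a window held the letters, as did both chromosomal passengers, all 3 cytokinesis genes and all 5 chromosome structure genes. Among tested members the median log2 change with erlotinib was -1.27 over the 37 with them and -1.38 over the 10 without. A match is a description of letters and not a bound site. Only these exact words were searched, so a gene without a match may still hold a CHR.

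**Figure D1:**
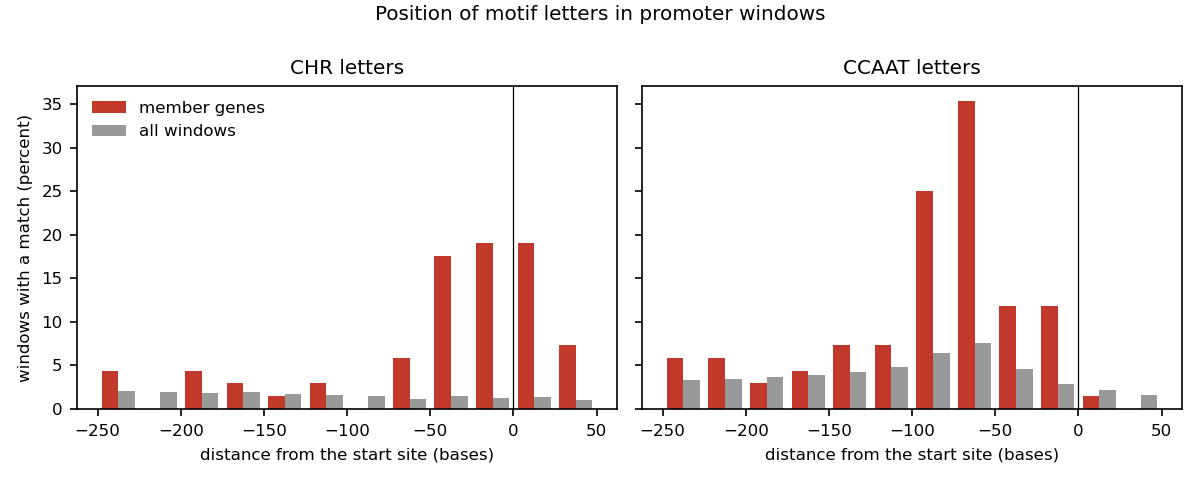
Share of promoter windows (percent) with CHR letters (left) or CCAAT letters (right) in bins of 25 bases, by distance from the start of transcription, for the 68 member windows (red) and all 35116 windows (grey). CHR letters of the members gather around the start, with 19.1% of windows in the bin just before it, and CCAAT letters peak between 75 and 50 bases before it, with 35.3%.

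In all, 3309 of the 9085 tested genes were higher and 3866 lower in E than in untreated cells, and 171 were higher and 43 lower in EA than in E (limma on log2(TPM + 1) with the line as a block, adjusted p under 0.05). The median change of all tested genes was -0.04 with erlotinib and 0.02 with AF154. Mitochondrial transcripts took 11.7 to 14.8% of TPM in untreated, 12.7 to 17.8% in E and 13.3 to 17.9% in EA libraries. Of the 5 epithelial markers, KRT8, KRT18 and KRT19 read 968 TPM or more in every library, EPCAM 286 or more and CDH1 60.8 or more. Their sum was 4991 to 5955 TPM in untreated, 4432 to 4917 in E and 4251 to 5469 in EA libraries, so it was lower in every E library than in any untreated one, and its part in the results was not tested. The summed leukocyte markers stayed at or below 1.78 TPM. Summed fibroblast markers were 16.2 to 36.6 TPM in untreated, 37.9 to 62.6 in E and 34.7 to 73.0 in EA libraries. That sum was mostly COL1A1, with LUM and COL3A1 at a median of 0 TPM, and its part in the results was not tested. AXL RNA stood at 92.4 TPM in untreated KO and 79.3 TPM in KO with erlotinib, below the 217 to 852 TPM of the 27 other libraries, so the RNA was lower in KO but still present. No 2 libraries were identical, and the closest pair had r = 0.9914.

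Erlotinib lowered the RNA of the mitotic genes in every line. Summed over the 60 members, the level was 5132 TPM at the lowest, 5346 at the median and 5764 at the highest in the 10 untreated libraries, and 2109, 2425 and 2702 in the 10 E libraries. Each of the 55 tested members was lower in E than in untreated cells past the threshold, against 42.6% of all tested genes. The drop was a log2 change of -1 or below for 46 of the 55, while 6.91% of all tested genes reached that size. Every E library lay below every untreated library for 54 of the 55 members, against 21.6% of all tested genes, with STMN1 the exception. The median log2 change was -1.31 over the members, and all 55 still passed with any 1 line left out. The 10 TPM filter used the mean over all 29 libraries, so high untreated levels helped some members to pass it. SPC24 passed only through its untreated libraries, with at most 9.17 TPM in E and 9.75 TPM in EA. KIF11 had a mean of 23.6 TPM untreated and 8.63 TPM in E.

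**Figure D2:**
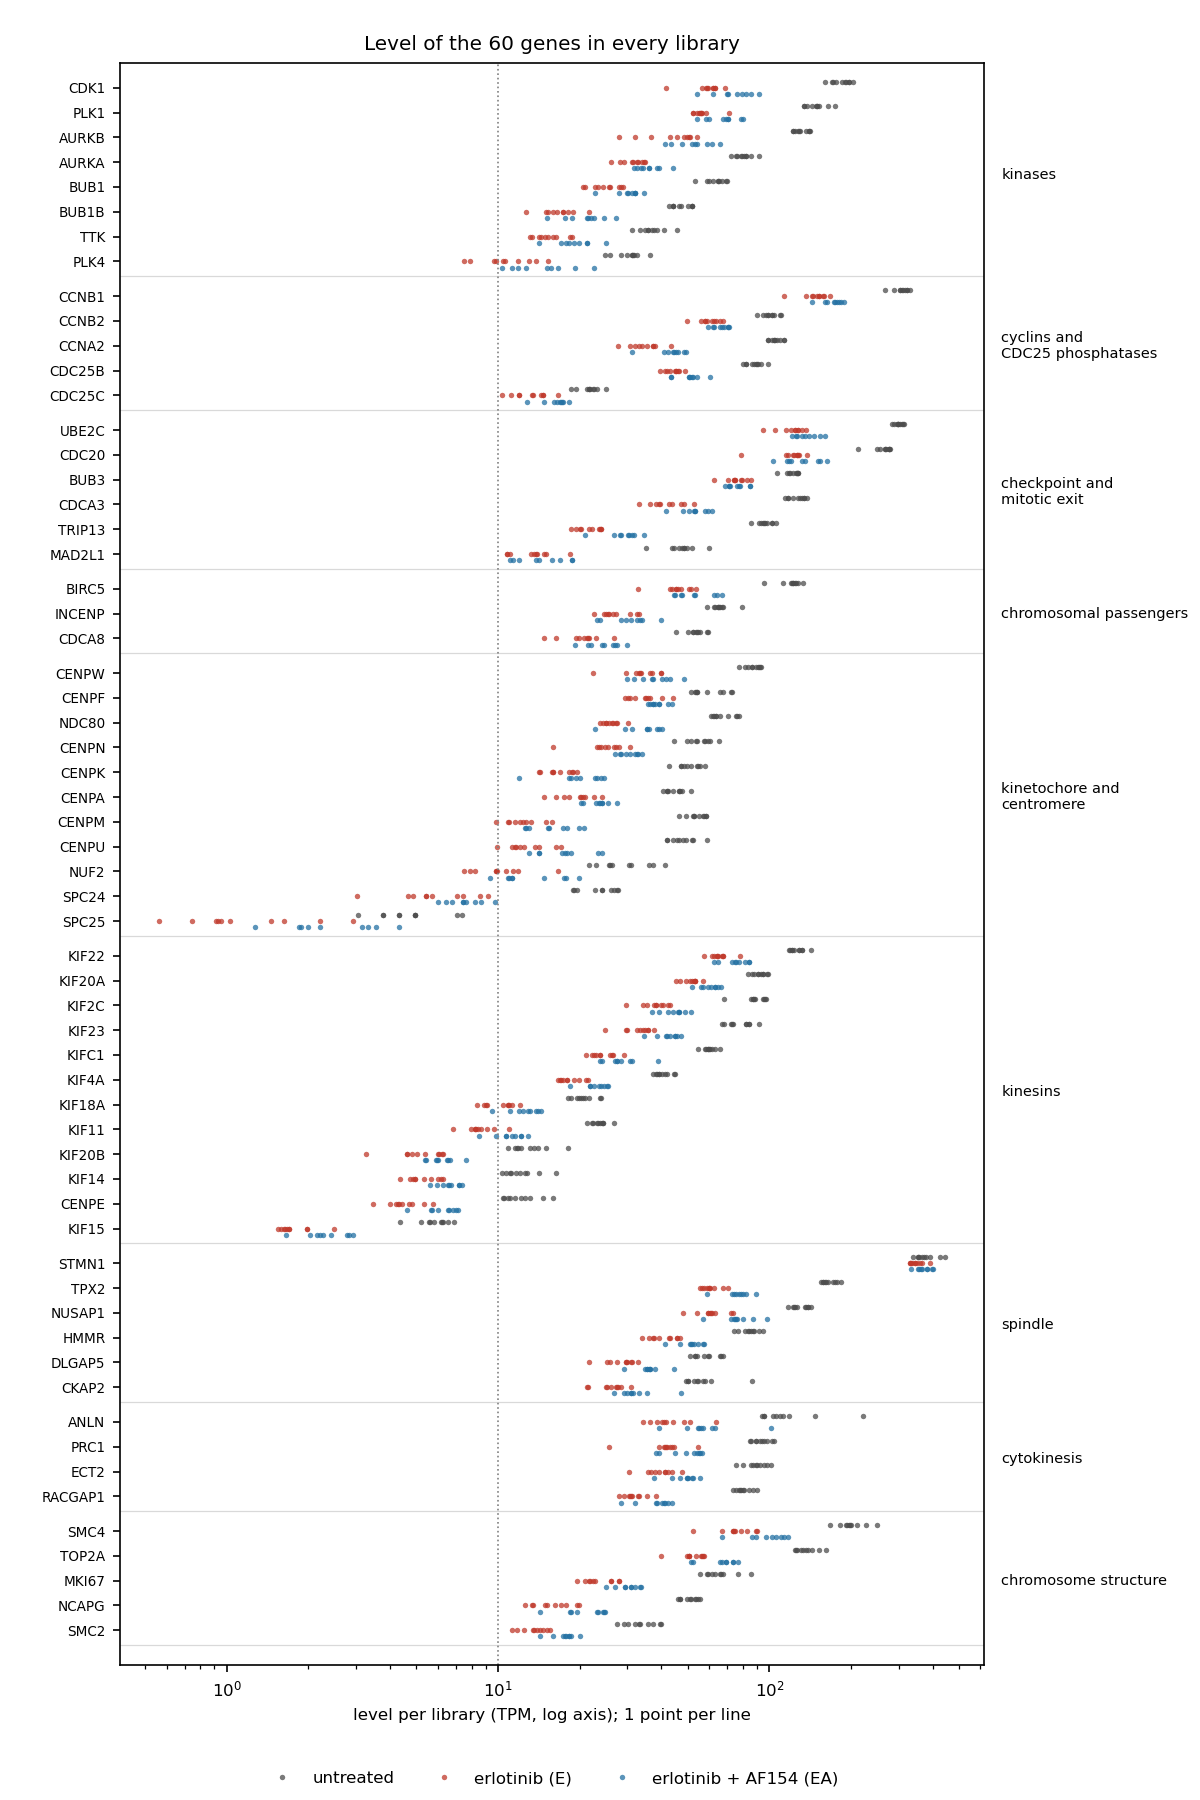
Level of each of the 60 genes in every library (TPM, log axis), 1 point per line, in untreated (grey), E (red) and EA (blue) libraries, grouped by class. The dotted line marks 10 TPM. Red points sit to the left of the grey ones for all genes but STMN1, and blue points lie mostly between them.

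The kinases start mitosis and police it. CDK1 (ENSG00000170312, chr10:60778331-60794852), the engine of mitotic entry, read 160, 188 and 204 TPM at the lowest, median and highest of the untreated libraries, and 41.6, 60.6 and 68.7 TPM with erlotinib. The highest treated library therefore lay far below the lowest untreated library, and the log2 change was -1.62 ± 0.044 (SE, n = 10 lines, limma adjusted p = 2.50e-13). AURKB, the kinase of the chromosomal passenger complex, changed by -1.58, BUB1B by -1.45, PLK4, which licenses centriole duplication, by -1.41 and PLK1 by -1.38. AURKA changed by -1.33, the checkpoint kinase BUB1 by -1.32 and TTK, which starts checkpoint signalling at the kinetochore, by -1.21. The 8 kinases thus spanned a narrow range around a class median of -1.39.

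Cyclins and CDC25 phosphatases activate CDK1, and their changes ran from -0.68 to -1.58. CCNB1 (ENSG00000134057, chr5:69167010-69178245), cyclin B1, read 267, 310 and 331 TPM untreated and 113, 151 and 167 TPM with erlotinib. Its log2 change was -1.05 ± 0.032 (SE, n = 10 lines, limma adjusted p = 6.66e-13), with no overlap between the groups. CCNA2, cyclin A2, which acts in S phase as well as in G2, changed by -1.58. The falls of the other 3 members were smaller, at -0.98 for CDC25B, -0.74 for CCNB2 and -0.68 for CDC25C. The class median of -0.98 was the smallest fall of the 9 classes.

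The spindle checkpoint and mitotic exit class held the largest fall of any member. TRIP13 (ENSG00000071539, chr5:892643-919357), the ATPase that remodels the checkpoint protein MAD2, read 85.3, 96.0 and 106 TPM untreated and 18.6, 21.9 and 24.0 TPM with erlotinib. Its log2 change was -2.10 ± 0.047 (SE, n = 10 lines, limma adjusted p = 5.73e-14). MAD2L1, which encodes MAD2 itself, changed by -1.74, from a median of 48.0 to 13.7 TPM. CDCA3, a mitotic entry factor, changed by -1.58, and UBE2C, the ubiquitin-conjugating enzyme of the anaphase-promoting complex, by -1.31. CDC20, the activator of that complex, changed by -1.13. BUB3, which carries BUB1 and BUB1B to kinetochores, changed least at -0.68, from 107, 123 and 128 TPM to 62.5, 74.5 and 85.8 TPM.

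The chromosomal passengers were close to each other, with BIRC5 (survivin) at -1.38, CDCA8 (borealin) at -1.35 and the scaffold INCENP at -1.25. Among kinetochore and centromere genes the falls were spread from -0.77 to -2.04. CENPM, of the inner kinetochore network, had a median of 53.9 TPM untreated and 12.2 TPM with erlotinib, a log2 change of -2.04 ± 0.072 (SE, n = 10 lines, limma adjusted p = 2.91e-12). CENPU and the outer kinetochore subunit SPC24 each changed by -1.82, although SPC24 was low, at a median of 5.57 TPM with erlotinib. CENPK changed by -1.54, NUF2 by -1.44, CENPW by -1.36, NDC80, the microtubule-binding partner of NUF2, by -1.34, CENPA, the centromeric histone, by -1.17 and CENPN by -1.13. CENPF, a large protein of the late G2 kinetochore, changed by -0.77, the smallest fall of the class.

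Kinesins move along spindle microtubules or take them apart. KIF11, the motor that pushes the spindle poles apart, fell most in this class, from 21.2, 23.5 and 26.7 TPM to 6.82, 8.36 and 11 TPM, a log2 change of -1.36 ± 0.055 (SE, n = 10 lines, limma adjusted p = 1.37e-11). KIFC1 changed by -1.27, the central spindle motor KIF23 by -1.22, the microtubule depolymerase KIF2C by -1.21 and the chromokinesin KIF4A by -1.09. Falls smaller than a log2 change of -1 were measured for KIF18A (-0.96), for KIF22 (-0.95), the most abundant kinesin at a median of 126 TPM untreated, and for KIF20A (-0.83). The class median was -1.15.

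Spindle genes include the exception to the shared fall. STMN1 (ENSG00000117632, chr1:25884181-25906991), a tubulin-binding protein that destabilises microtubules and is expressed outside mitosis too, was the most abundant member, at 338, 367 and 443 TPM untreated and 330, 343 and 391 TPM with erlotinib. These groups overlapped, and the log2 change of -0.11 ± 0.032 (SE, n = 10 lines, limma adjusted p = 0.00495) was lower in 8 of 10 lines. With library medians centred it no longer passed (adjusted p = 0.0779), nor after quantile normalization (adjusted p = 0.471). TPX2, the activator of AURKA on the spindle, read 155, 163 and 184 TPM untreated and 55.5, 59.9 and 70.4 TPM with erlotinib, a log2 change of -1.44 ± 0.029 (SE, n = 10 lines, limma adjusted p = 3.67e-14). CKAP2 changed by -1.10, NUSAP1 by -1.08, HMMR by -1.04 and DLGAP5 by -1.02.

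The cytokinesis genes guide the split of the cell after anaphase. ANLN, the scaffold of the contractile ring, changed by -1.41, RACGAP1 by -1.31, and PRC1 and ECT2, the exchange factor that switches on RHOA at the division plane, each by -1.16. ANLN was unusual in its spread before treatment, with 94.2, 108 and 222 TPM in the untreated libraries, the highest value being PAR. In the chromosome structure class, TOP2A (ENSG00000131747, chr17:40388516-40417950), the topoisomerase that untangles sister chromatids, read 124, 134 and 162 TPM untreated and 39.7, 52.1 and 57.3 TPM with erlotinib. That was a log2 change of -1.38 ± 0.055 (SE, n = 10 lines, limma adjusted p = 1.05e-11), without overlap. The condensin subunits NCAPG, SMC4 and SMC2 changed by -1.62, -1.41 and -1.25, and the proliferation antigen MKI67 by -1.44.

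The 5 members below 10 TPM moved the same way in all 10 lines. CENPE, the kinesin that carries chromosomes to the spindle equator, had medians of 11.8 TPM untreated and 4.37 TPM with erlotinib. KIF14 had medians of 11.8 and 5.14 TPM, KIF20B of 12.6 and 5.21 TPM and KIF15 of 5.99 and 1.68 TPM. SPC25, the partner of SPC24, had medians of 4.63 and 0.989 TPM. None of these 5 showed overlap between its untreated and E libraries.

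AF154 added to erlotinib raised part of this set. This comparison used the 8 lines that had both libraries and no known loss of the AXL kinase (KD and KO left out). Of the 55 tested members, 32 were higher in EA than in E past the threshold and 0 were lower, while 1.88% of all tested genes were higher. The 32 members made up 18.7% of the 171 genes called higher. The level was higher in 8 of 8 lines for 34 members, against 3.96% of all tested genes. The rises were small next to the falls, with a median log2 change of 0.32 over the members. EA lay above E in all libraries without overlap for 7 members (TRIP13, KIF23, KIF4A, TPX2, HMMR, DLGAP5 and SMC2), against 0.253% of all tested genes. For HMMR the gap was smaller than the rounding, since its highest E and lowest EA library, both of Y726F, each read 46.8 TPM.

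The count of called members depended on the fit. Without the line block it was 4 of 55, and with all genes of a mean of 1 TPM or more tested it was 18. Leaving out 1 line gave 16 without PAR, 29 without WT, 7 without Y634F, 11 without Y643F, 15 without Y698F, 28 without Y726F, 21 without Y750F and 19 without Y821F. In these 8 fits, CDK1, TRIP13, NDC80, TPX2, NUSAP1, ANLN and TOP2A passed each time. Of the called members, CDC25B, CDCA3, CENPK, KIF2C, CKAP2 and NCAPG passed in only 1 of these fits. TTK, CDC25C, HMMR, PRC1 and RACGAP1 passed in 2 of them, and UBE2C, MKI67, SMC2 and SMC4 in 3. At an unadjusted p under 0.05 the count in the reported fit was 51 of 55, against 1895 of the 9085 tested genes. For the alternative fits the count over all genes is not given here. A loss of calls among members therefore cannot be told apart from a loss over all genes.

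**Figure D3:**
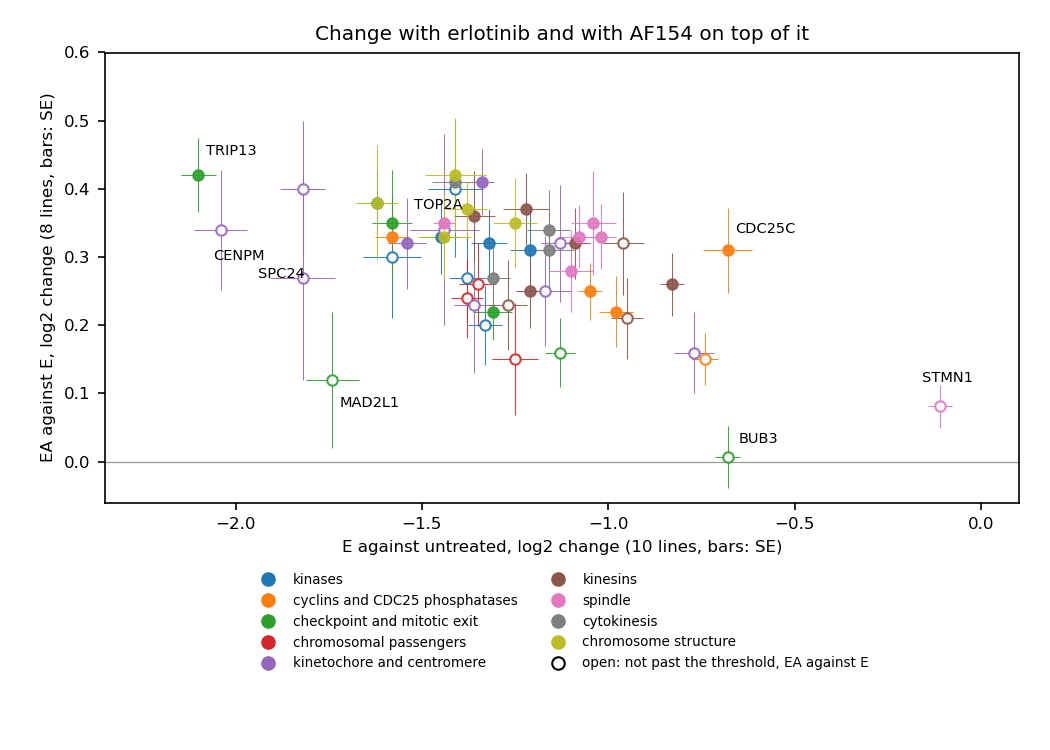
Log2 change of the 55 tested genes with erlotinib (x axis, 10 lines) and with AF154 added to erlotinib (y axis, 8 lines), coloured by class, with bars for the SE and open points for genes that did not pass the threshold in EA against E. All points lie left of 0 and none below 0. Both axes use the same E libraries, so no relation between them is drawn.

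TOP2A gave the smallest adjusted p among the members. In the 8 lines its E libraries read 39.7, 54.9 and 57.3 TPM at the lowest, median and highest, and its EA libraries 52.3, 69.1 and 76.7 TPM, so the groups overlapped although every line rose. The log2 change was 0.37 ± 0.040 (SE, n = 8 lines, limma adjusted p = 0.00638). All 5 genes of chromosome structure passed, SMC4 with the largest mean rise at 0.42, NCAPG with 0.38, SMC2 with 0.35 and MKI67 with 0.33. For SMC4 the PAR pair alone rose by 1.09, and the mean without PAR was 0.32. All 4 cytokinesis genes also passed, with ANLN at 0.41, ECT2 at 0.34, PRC1 at 0.31 and RACGAP1 at 0.27. With 1 line left out, NCAPG passed in 1 of 8 fits, PRC1 and RACGAP1 in 2, and SMC4, SMC2 and MKI67 in 3.

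Of the kinases, 4 of 8 passed. CDK1 read 41.6, 60.6 and 68.7 TPM with erlotinib and 61.8, 77.5 and 91.8 TPM with AF154 as well, a log2 change of 0.38 ± 0.047 (SE, n = 8 lines, limma adjusted p = 0.00887) with a rise in every line. BUB1B changed by 0.33, BUB1 by 0.32 and TTK by 0.31. PLK4 had the largest mean change of the class, 0.40, but its lines ranged from 0.036 in Y726F to 1.02 in WT and the adjusted p was 0.0645. PLK1 (0.27, adjusted p = 0.0513), AURKB (0.30, adjusted p = 0.0958) and AURKA (0.20, adjusted p = 0.0915) did not pass either.

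Among cyclins and phosphatases, CCNA2 changed by 0.33, CDC25C by 0.31, CCNB1 by 0.25 and CDC25B by 0.22, all past the threshold. CCNB1 read 113, 151 and 167 TPM with erlotinib and 161, 175 and 188 TPM with AF154 as well (adjusted p = 0.0194), so that 1 E library, WT, reached into the EA range. CCNB2 was at 0.15 (adjusted p = 0.0577) although its 8 lines all moved up. In the checkpoint and exit class TRIP13 rose from 19.4, 22.9 and 24.0 TPM to 26.8, 30.3 and 34.6 TPM, a log2 change of 0.42 ± 0.054 (SE, n = 8 lines, limma adjusted p = 0.00887). CDCA3 changed by 0.35 and UBE2C by 0.22, both past the threshold, and CDC20 by 0.16 (adjusted p = 0.10).

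CDC20, BUB3 and MAD2L1, the subunits of the mitotic checkpoint complex in this class, each missed the threshold. BUB1B, the subunit counted with the kinases, passed at 0.33 (limma adjusted p = 0.0194) with 8 of 8 lines up. CDC20 was up in 7 of 8 lines. BUB3 read 62.5, 76.8 and 85.8 TPM in E and 68.8, 76.5 and 85.2 TPM in EA, a log2 change of 0.0069 ± 0.045 (SE, n = 8 lines, limma adjusted p = 0.948) with 5 lines up and 3 down. The sign of that value turned under median centring and quantile normalization. MAD2L1 read 10.8, 13.7 and 18.4 TPM in E and 11.4, 14.9 and 18.8 TPM in EA, a change of 0.12 ± 0.10 (SE, n = 8 lines, limma adjusted p = 0.520) with 4 lines up and 4 down. No chromosomal passenger passed, with values of 0.26 for CDCA8 (adjusted p = 0.0510), 0.24 for BIRC5 (adjusted p = 0.0568) and 0.15 for INCENP (adjusted p = 0.304).

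In the kinetochore and centromere class 2 of 10 passed. NDC80 read 23.8, 26.4 and 30.2 TPM in E and 29.4, 35.7 and 40.3 TPM in EA, a log2 change of 0.41 ± 0.049 (SE, n = 8 lines, limma adjusted p = 0.00887). CENPK changed by 0.32 (adjusted p = 0.0371), with Y750F alone going down. The fitted values of CENPU (0.40), CENPM (0.34), NUF2 (0.34) and CENPN (0.32) were as large, but their spread between lines was wider and none passed. SPC24, at 0.27 ± 0.15 (SE, n = 8 lines, limma adjusted p = 0.329), ran from -0.27 in WT to 1.26 in PAR. CENPA was at 0.25, CENPW at 0.23 and CENPF at 0.16, with adjusted p from 0.115 to 0.223.

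Of the 8 tested kinesins 5 passed, as did 5 of the 6 spindle genes. KIF23 changed by 0.37, KIF11 by 0.36, KIF4A by 0.32, KIF20A by 0.26 and KIF2C by 0.25, all past the threshold. KIF18A (0.32), KIFC1 (0.23) and KIF22 (0.21) did not pass. KIF23, which separated fully, read 24.8, 34.4 and 37.5 TPM in E and 38.4, 43.9 and 47.2 TPM in EA. Of the spindle genes TPX2 and HMMR changed by 0.35 each, NUSAP1 and DLGAP5 by 0.33 each and CKAP2 by 0.28, all past the threshold, and STMN1 was at 0.081 (adjusted p = 0.173). Among the 5 genes under 10 TPM, the fit that admitted genes of 1 TPM or more gave 0.42 for CENPE (adjusted p = 0.0356). It gave 0.53 for SPC25 (adjusted p = 0.221), 0.30 for KIF20B (adjusted p = 0.121), 0.28 for KIF15 (adjusted p = 0.187) and 0.26 for KIF14 (adjusted p = 0.0972).

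The level with AF154 stayed well below the untreated level. EA was lower than untreated past the threshold for 54 of the 55 members, against 37.6% of all tested genes, with a median log2 change of -1.0. STMN1 was the exception, at -0.030 (adjusted p = 0.639), with 4 lines up and 4 down. TRIP13 and CENPM stayed furthest below their untreated level, each at -1.66 relative to untreated cells, and CDC25C came closest to its untreated level among the called members, at -0.37 (adjusted p = 5.35e-04).

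The share of the erlotinib fall that AF154 restored was taken as the mean of EA minus E divided by the mean of untreated minus E, over the same 8 lines on the log2(TPM + 1) scale. It is a description with no test, since both terms hold the E libraries. The median was 23.1% over the 55 members, with quartiles of 19.8 and 28.3%, and 12.8% over all 3866 genes lower with erlotinib, with quartiles of 1.01 and 23.9%. On the TPM scale the members' median was 16%. By class the median was 32.2% for spindle genes, 27.6% for kinesins, 27.2% for cytokinesis and 26.7% for chromosome structure. It was 23.0% for kinases, 22.4% for cyclins and phosphatases, 21.3% for kinetochore and centromere genes, 17.2% for chromosomal passengers and 15.6% for the checkpoint and exit class. The differences between classes were not tested, and single genes ranged widely inside a class.

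The gene with the largest share, STMN1 at 72.9%, had almost no fall to restore. After it came CDC25C, the phosphatase that removes the inhibitory mark from CDK1, at 46.1%, and HMMR at 34.4%. KIF18A stood at 32.9% and DLGAP5, which stabilises kinetochore fibres, at 32.5%. The smallest shares were 1.02% for BUB3 and 7.17% for MAD2L1. The central regulators were close to the median, with CDK1 at 23.3%, CCNB1 at 23.4%, TOP2A at 26.7% and PLK1 at 19.9%. TRIP13, the gene with the largest fall, had a share of 20.1%.

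**Figure D4:**
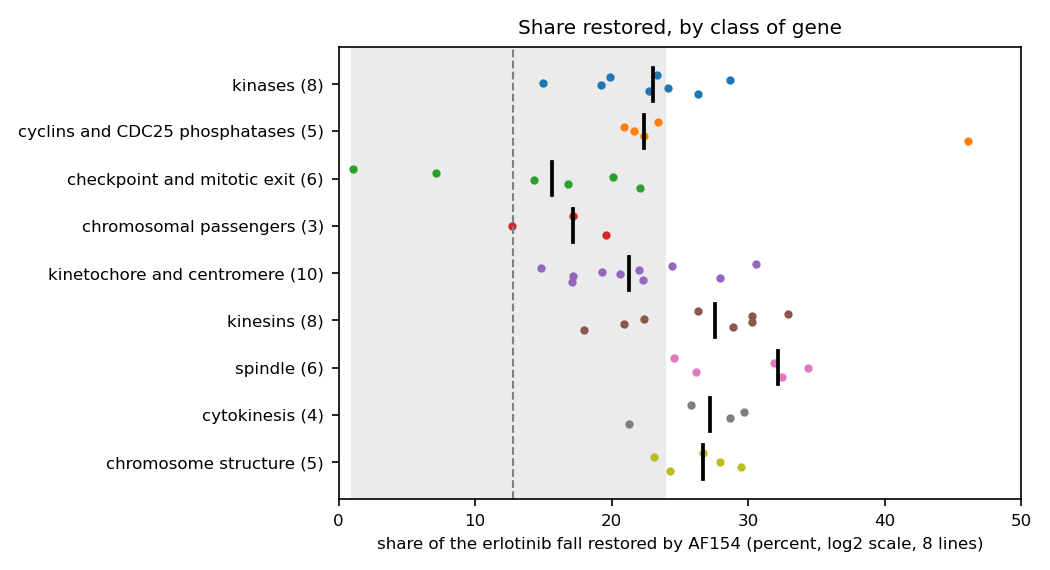
Share of the erlotinib fall restored by AF154 (percent, log2 scale, 8 lines) for each tested gene by class, with the number tested in brackets and a black bar at the class median. STMN1, at 72.9%, is beyond the axis, and its value enters the spindle median. The dashed line and grey band mark the median (12.8%) and quartiles of all genes lower with erlotinib. Spindle genes and kinesins sit furthest right.

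Line by line, the fall with erlotinib was deepest in PAR. The median log2 change over the 55 members was -1.60 in PAR, -1.35 in KO, -1.32 in Y821F, -1.31 in KD and between -1.19 and -1.29 in the other 6 lines. PAR had the largest fall of the 10 lines for 38 of the 55 members, against 25.8% of all tested genes. The KO line, with its cut AXL, lay inside the range of the other 9 lines for 47 of the 55 members, for example at -1.63 for CDK1, -1.41 for TOP2A and -0.99 for CCNB1. The same count was 17 in PAR, 39 in WT, 47 in Y726F and in Y821F and 53 in KD, so it does not set KO apart. The share over all tested genes is not given here. KO fell furthest of all lines for 7 members (TTK, MAD2L1, CDCA8, CENPA, NUSAP1, DLGAP5 and NCAPG) and least for CDC25B, at -0.80. The median over all tested genes was -0.16 in PAR and between -0.06 and 0.02 in the other 9 lines.

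The rise with AF154 was also largest in PAR. Its median over the members was 0.51, followed by 0.33 in Y698F, 0.32 in Y643F and 0.30 in Y634F, then 0.23 in each of Y726F, Y750F and Y821F and 0.17 in WT. PAR had the largest rise of the 8 lines for 33 of the 55 members, against 21.1% of all tested genes. As a share of that line's fall, the rise was 31.9% in PAR, 27.3% in Y698F, 25.2% in Y634F, 25% in Y643F, 19.1% in Y750F, 18.3% in Y726F, 17.7% in Y821F and 14.1% in WT. For all genes lower with erlotinib the share was 28.1% in PAR and 6.91 to 15% in the other 7 lines. With 1 library for each line and treatment, no test separates any 2 of these lines. The fall and the rise of PAR share its E library. That library had the lowest member sum of the 10 E libraries (2109 TPM) and their highest mitochondrial share (17.8%). The EA library of PAR summed to 2876 TPM, against a median of 2883 TPM over the 9 EA libraries. The part of the PAR E library in both values was not tested. Most cells of the transduced pools lacked AXL per the study's supplement, unlike PAR, and the part of this in the order of lines was not tested.

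The KD line, whose AXL lacks kinase activity, had the smallest median change over these genes with AF154. Its median over the members was 0.038, below the 0.17 to 0.51 of the 8 lines, with 38 members higher and 17 lower. Over all 9085 tested genes the KD median was 0.0025, with 4482 genes lower. KD lay below all 8 lines for 26 of the 55 members, against 11% of all tested genes. In KD the log2 change was -0.061 for CDK1, 0.023 for TOP2A and -2.9e-05 for CCNB1. In the 8 lines it ran from 0.23 to 0.56 for CDK1, from 0.26 to 0.53 for TOP2A and from 0.16 to 0.50 for CCNB1. TRIP13, at 0.16 in KD and 0.23 to 0.62 in the 8 lines, showed the same order. CDK1, TOP2A, CCNB1 and TRIP13 are all among the 26 members for which KD lay lowest.

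Single genes in KD still varied from -0.40 for CENPK to 0.47 for PLK4 and CENPU. By class the KD median was -0.011 for kinases, -0.014 for the checkpoint and exit class, -0.022 for cytokinesis, 0.033 for chromosomal passengers, 0.040 for cyclins and phosphatases, 0.054 for kinesins, 0.066 for spindle genes, 0.069 for chromosome structure and 0.15 for kinetochore and centromere genes. KD was not the lowest line for chromosomal passengers, where WT stood at 0.032 and Y821F at -0.011. For kinetochore and centromere genes Y750F was close to it, at 0.17. The fall with erlotinib in KD was of ordinary size, at -1.31, so the share restored there was 2.91%. AXL RNA in KD stood at 379 TPM with E and 386 TPM with EA, between the values of PAR and Y634F. This is 1 pair of libraries, without a replicate, and is given as a description.

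**Figure D5:**
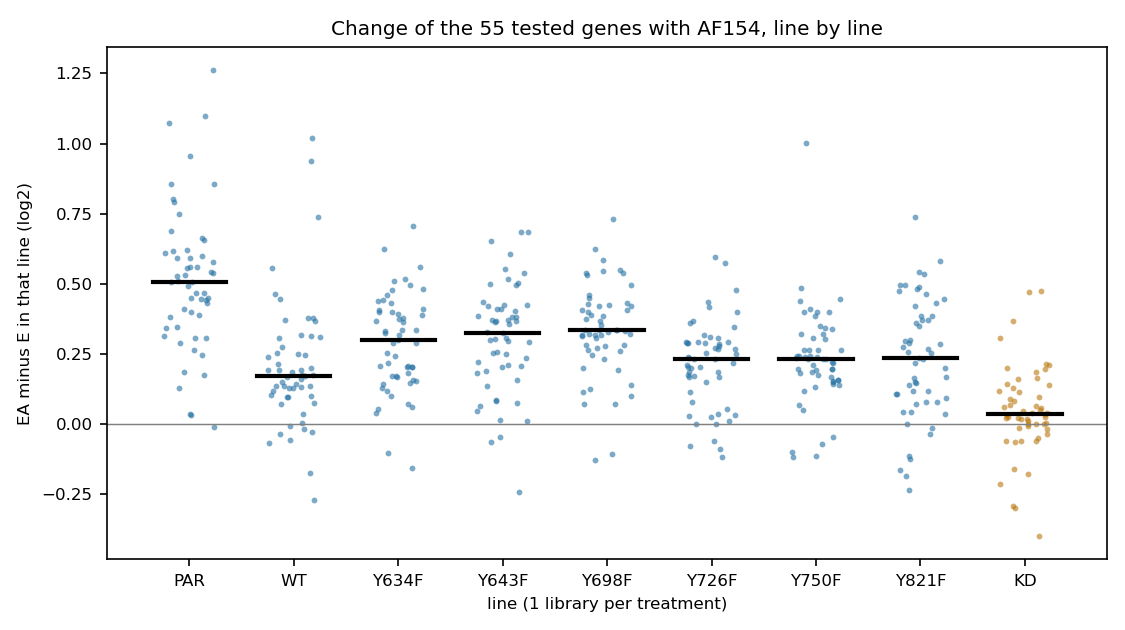
EA minus E (log2) of each of the 55 tested genes in each line, with a black bar at the median. Blue marks the 8 lines in the comparison and ochre marks KD. The medians run from 0.17 in WT to 0.51 in PAR, and the KD median is 0.038.

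Most members were carried by 1 transcript. The leading transcript held more than 50% of the gene's TPM in 40 of the 60 members, with a median share of 69.2%. In TOP2A the transcript TOP2A-201 held 90.5% of the gene untreated, 94.7% with erlotinib and 92.3% with AF154 as well. STMN1 was divided between STMN1-206, at 47.9, 48.9 and 46.7%, and STMN1-202, at 46.9, 45.6 and 47.4% in the 3 treatments. MAD2L1 was led by MAD2L1-202, which the annotation marks as a target of nonsense-mediated decay, with 70.2 ± 3.91% of the gene untreated and 62.5 ± 6.98% with erlotinib (SD, n = 10 lines each). The coding transcript MAD2L1-201 held 18.8% and 18.1%.

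A few genes changed their mix. CDCA3-207 held 9.90 ± 2.43% of CDCA3 untreated and 17.1 ± 2.08% with erlotinib (SD, n = 10 lines each). KIF23-201 held 8.64 ± 3.81% of KIF23 and then 16.5 ± 3.14%. ECT2-204 held 43.1 ± 3.35% of ECT2 and then 50.7 ± 2.6%. These 3 genes were picked after their values were seen, the shares are kallisto estimates between overlapping transcripts, and they were not tested. All the transcripts named here for these 3 genes are annotated as protein-coding.

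Other genes of the pathway, in 5 lists that hold none of the members, were counted in the same fit. Of 81 genes 69 were tested, 64 were lower and 4 higher with erlotinib, and 16 were higher and 0 lower with AF154. Of all 9085 tested genes, 42.6% were lower and 3309 genes higher with erlotinib, and 1.88% were higher with AF154. In the lists, the 4 higher with erlotinib were LIN37, RBL2, CENPT and WEE1, the kinase that holds CDK1 inactive. FOXM1, the transcription factor of G2 genes, had a mean of 194 ± 9.65 TPM untreated and 84.0 ± 9.0 TPM with erlotinib (SD, n = 10 lines), a log2 change of -1.21, and rose by 0.23 with AF154 (adjusted p = 0.0383). MYBL2, which encodes B-MYB, fell from 135 ± 6.84 to 35 ± 5.63 TPM (SD, n = 10 lines), a change of -1.93, and rose by 0.42 (adjusted p = 0.0194).

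Regulators of mitotic transcription numbered 7 tested, of which 5 were lower with erlotinib and 2, FOXM1 and MYBL2, higher with AF154. TFDP1, the E2F partner, changed by -1.31. Of 21 tested kinetochore and centromere genes outside the members, 20 were lower with erlotinib and 3 higher with AF154, led by SKA3 (-2.05 and 0.44) and ZWINT (-1.70 and 0.33). Of 17 other mitotic regulators 15 were lower and 1, WEE1, higher with erlotinib, and 3 were higher with AF154, with erlotinib changes for PKMYT1 of -1.93 and for MELK of -1.58. All 14 other spindle, motor and cytokinesis genes were lower and 5 were higher with AF154, with KIF18B at -1.60 and CKAP2L at -1.46. All 10 other condensin and chromosome genes were lower and 3 higher with AF154, with LMNB1 at -1.74 and NCAPH at -1.54.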

How the data were processed

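PolyA RNA from 29 dishes of 10 PC9 lines, seeded at 300000 cells, was sequenced, and the processing notes name kallisto and GRCh38. The authors deposited TPM per transcript, estimated by kallisto (version not given in the sources used here). TPM keeps no read depth, so no counting interval was possible, and each value is relative to the other RNA of its library. Of 188753 transcripts, 169754 matched GENCODE 29 and were summed to 35544 genes, holding 97.0 to 97.3% of TPM. Genes with a mean of 10 TPM or more over the 29 libraries (9085) were tested on log2(TPM + 1) with limma 3.58.1 in R 4.3.3, trend and line block included, with Benjamini-Hochberg adjustment over all 9085 and a threshold of 0.05. A fold change on this scale understates that of low genes.

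Groups came from the treatment labels and lines from the genotype labels. E was set against untreated in 10 lines, and EA against E and against untreated in 8 lines. Libraries of a line came from the same cells, which is where the pairing comes from. Deviations from the group means correlated within lines at 0.10 to 0.60 (untreated and E), 0.11 to 0.74 (E and EA) and -0.12 to 0.54 (untreated and EA). The handling time of untreated dishes is not labelled.

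All 60 genes are accounted for. Each tested gene is named with its log2 change in E against untreated and in EA against E. Levels and SE are given for only part of them, among them TOP2A, CDK1 and CCNB1. Other pathway lists are given by counts, with FOXM1, MYBL2 and the 2 genes with the largest change past the threshold with erlotinib. The members, classes and lists were chosen with earlier results of these data known. The steps were tested on simulated data. Promoters came from RefSeq (GRCh38.p14), and gene coordinates are those of GENCODE 29. Alternatives covered the pseudocount, filters, scaling, mitochondrial genes, block, weights, the KD pair and each line left out.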

Additional observations from a re-analysis of the deposited data

Results flagged for a closer look

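Changes of the 55 tested genes and of their median were examined for a line far from the others, in 10 lines for erlotinib and in 8 for AF154. Of 112 such groups 10 held one, where about 1 in 20, or 5.60, would be flagged by chance. The groups share libraries and hold genes that move together, so nothing is drawn from the difference between these counts. PAR was the distant line in 7 of the 10.

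With erlotinib the PAR median over the members was -1.60, while the other 9 lines ran from -1.35 to -1.19. PAR also fell furthest for SMC4 (-2.23, others -1.53 to -1.10), BUB1 (-1.71, others -1.39 to -1.14), AURKA (-1.67, others -1.40 to -1.13) and KIF22 (-1.29, others -1.0 to -0.75). MAD2L1 fell least in Y726F (-1.20, others -2.03 to -1.61), and BIRC5 fell least in WT (-1.05, others -1.51 to -1.27).

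With AF154, SMC4 rose by 1.09 in PAR (others 0.18 to 0.50) and CENPW by 1.07 in PAR (others -0.12 to 0.25), whereas CENPK stood at -0.068 in Y750F (others 0.28 to 0.56). Each value comes from 1 pair of libraries, and a library effect and a line effect cannot be told apart. The PAR values with erlotinib and with AF154 share the same E library.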

How the results depend on the processing

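The count of members lower with erlotinib was 54 or 55 under the scaling, pseudocount, block and weight alternatives and under each line left out, and 48 of 48 where 10 TPM was asked of every library. The median share restored was 21.4 to 24.2% with 1 line left out, and 16% on the TPM scale. The count of members higher in EA than in E was 32 in the reported fit, 18 with genes of 1 TPM or more admitted, 4 without the line block, and 7 (without Y634F) to 29 (without WT) with 1 line left out. It was 26 with the KD pair included and 27 to 41 under the pseudocount, scaling, stricter filter, mitochondrial and weight alternatives. The fit without the block drops the pairing of dishes, and admitting low genes raises the number of tests. The counts over all genes in these fits are not given here. The sign of BUB3 in EA against E turned to -0.0091 with library medians centred and -0.0069 after quantile normalization, and ran from -0.017 to 0.033 with 1 line left out. STMN1 in EA against untreated turned to 0.0042 with medians centred and 0.043 after quantile normalization, and lay between -0.059 and 6.8e-04 with 1 line left out. Other causes were not tested. All values rest on 1 library per line and treatment, TPM holds no depth, and the lines share 1 origin, so low genes such as SPC25 are the least certain.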
